A study of Homo sapiens with 8 samples.

Results

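The RNA of 10 genes of endoplasmic reticulum (ER)-associated degradation, or ERAD, was described here. *HERPUD1*, *SYVN1*, *SEL1L*, *DERL1*, *DERL2* and *DERL3* encode parts of the membrane complex, *EDEM1*, *EDEM2* and *EDEM3* the mannosidase family, and *OS9* a lectin. They were taken by symbol, each matched 1 of the 60754 rows of the table of TPM (a level scaled by transcript length and by the total of the library), and all 10 were among the 15614 genes tested. ERAD removes proteins that fail to fold in the ER. Mannosidases and lectins recognize the misfolded protein, a membrane complex built on the ubiquitin ligase HRD1 moves it across the ER membrane and ubiquitinates it, and the proteasome destroys it in the cytosol. Transcription of ERAD genes is raised by the unfolded protein response, whose sensors in the ER membrane signal through XBP1, ATF6 and, by way of translation control, ATF4. Cells of the B lineage use this pathway heavily when they make immunoglobulin chains.

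RNA-seq libraries came from SEM cells, a human line of acute lymphoblastic leukemia of the B lineage with a rearranged *KMT2A* gene. All groups carried a miniAID-mClover3 tag on both alleles of *CTCF* and a lentiviral OsTIR1 mutant with Zeocin resistance, driven by the MND promoter, so that the auxin analog 5-Ph-IAA could direct the tagged CTCF protein to the proteasome. Clone C17.2 and clone C3.2 each gave 2 libraries of untreated parental cells and 2 of resistant cells, which had been kept for 36 days in Zeocin at 100 μg/ml with 5-Ph-IAA at 1 μM, then grown free of drug before harvest. Each resistant population came from 1 clone, and the labels do not say whether the 2 libraries of a group came from separate cultures, so the p-values measure the spread between these libraries only. In the paper, resistant cells of the first clone make a truncated CTCF, and their full-length tagged CTCF came back once auxin was washed out. Those of the second clone make a tag with a changed residue, and neither allele was examined here. The titles of the libraries open with numbers that form a separate run for each clone and that the labels do not explain, so a difference between the clones cannot be told apart from one between these sets of libraries.

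The levels below are TPM divided by a scaling factor for each library, which ran from 0.893 to 1.16, and are called scaled TPM. Fold changes are on the log2(scaled TPM + 1) scale, which understates the change of low genes, and were tested with limma across all 15614 genes with a threshold of 0.05 on the Benjamini-Hochberg adjusted p, two-sided. TPM keeps no sequencing depth, so no counting error can be given. The tagged gene, *CTCF*, had 33.7 and 34.1 scaled TPM in clone C17.2 parental libraries and 45.5 and 47.4 in resistant libraries (log2 fold change 0.44, limma adjusted p = 8.1e-04). In clone C3.2 it had 36.0 and 35.0 scaled TPM in parental libraries and 45.3 and 44.8 in resistant libraries (log2 fold change 0.33, limma adjusted p = 0.0069). The tag acts on the protein, so RNA of *CTCF* does not measure its removal. All 10 markers of B-lineage leukemia cells exceeded 1 scaled TPM in each group, and their summed level was 1152 to 1202 scaled TPM in parental libraries and 958 to 982 in resistant libraries. *CD79B* had the lowest mean of the 10 in each group and fell in clone C17.2 and clone C3.2 (log2 fold change -1.51 and -1.03). The 10 did not all fall, since *PAX5* was higher in clone C3.2 (log2 fold change 0.27). Of 14 markers of other cell types, 3 or 4 reached a mean of 1 scaled TPM in a group. These were *NCAM1*, *COL1A1* and *PECAM1* in each group, with *LYZ* in the resistant groups only. *CD3D* and *EPCAM* were listed at 0 throughout. The summed level of the 14 was 6.54 to 9.45 scaled TPM in parental libraries and 9.98 to 15.9 in resistant libraries. The part of these shifts in the ERAD results was not tested. In bulk RNA, fewer cells that express a gene and less of its RNA per cell cannot be told apart.

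The 10 genes did not move as a block. In both clones, *HERPUD1*, *EDEM1*, *SYVN1* and *DERL3* were lower in resistant than in parental cells, and *EDEM2* was higher in clone C17.2. The falls of *HERPUD1* and *EDEM1* were larger in clone C17.2, by 1.51 and 0.73 on the log2 scale, while *SYVN1* and *DERL3* fell by nearly the same factor in each clone. *SEL1L*, *EDEM3*, *OS9*, *DERL1* and *DERL2* did not pass the test in either clone. In clone C17.2, 4 of the 10 genes were lower and 1 was higher (5 of 10), against 13.9% lower, 13.4% higher and 27.3% in either direction among all genes tested. In clone C3.2, 4 of 10 were lower and 0 higher, against 6.91% lower, 4.43% higher and 11.3% in either direction (1 of the 10, *EDEM2*, was higher at an unadjusted p under 0.05 in limma). The same 4 genes were lower in both clones, a pattern held by 4.16% of genes tested. The 10 genes were chosen with earlier results of these data known, so these shares are not on equal terms. In clone C3.2 only *EDEM1* of the 4 passed for TPM as deposited, and likewise without either parental library or without resistant library 2 of that clone. The 2 resistant and 2 parental libraries did not overlap for 9 of the 10 genes in each clone, which says little, since they did not overlap for 66.0% of all genes tested in clone C17.2 and 55.8% in clone C3.2. The split of calls depended on the scaling, for the 10 genes and for all genes. In clone C17.2, TPM as deposited gave 3 of the 10 higher (*DERL1*, *DERL2* and *EDEM2*) and 2 lower (*HERPUD1* and *EDEM1*), and TPM rescaled over protein-coding genes gave 3 higher and 4 lower. Among all genes in clone C17.2, 2085 were higher and 2174 lower, against 3849 and 1279 for TPM as deposited and 3140 and 1719 for TPM rescaled over protein-coding genes, and in clone C3.2 691 and 1079, against 716 and 523, then 1712 and 743, and 787 and 763 after quantile normalization. The median log2 fold change of the 10 genes was -0.14 in clone C17.2 and -0.06 in clone C3.2, against 0.00 over all genes tested in each clone.

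**Figure D1:**
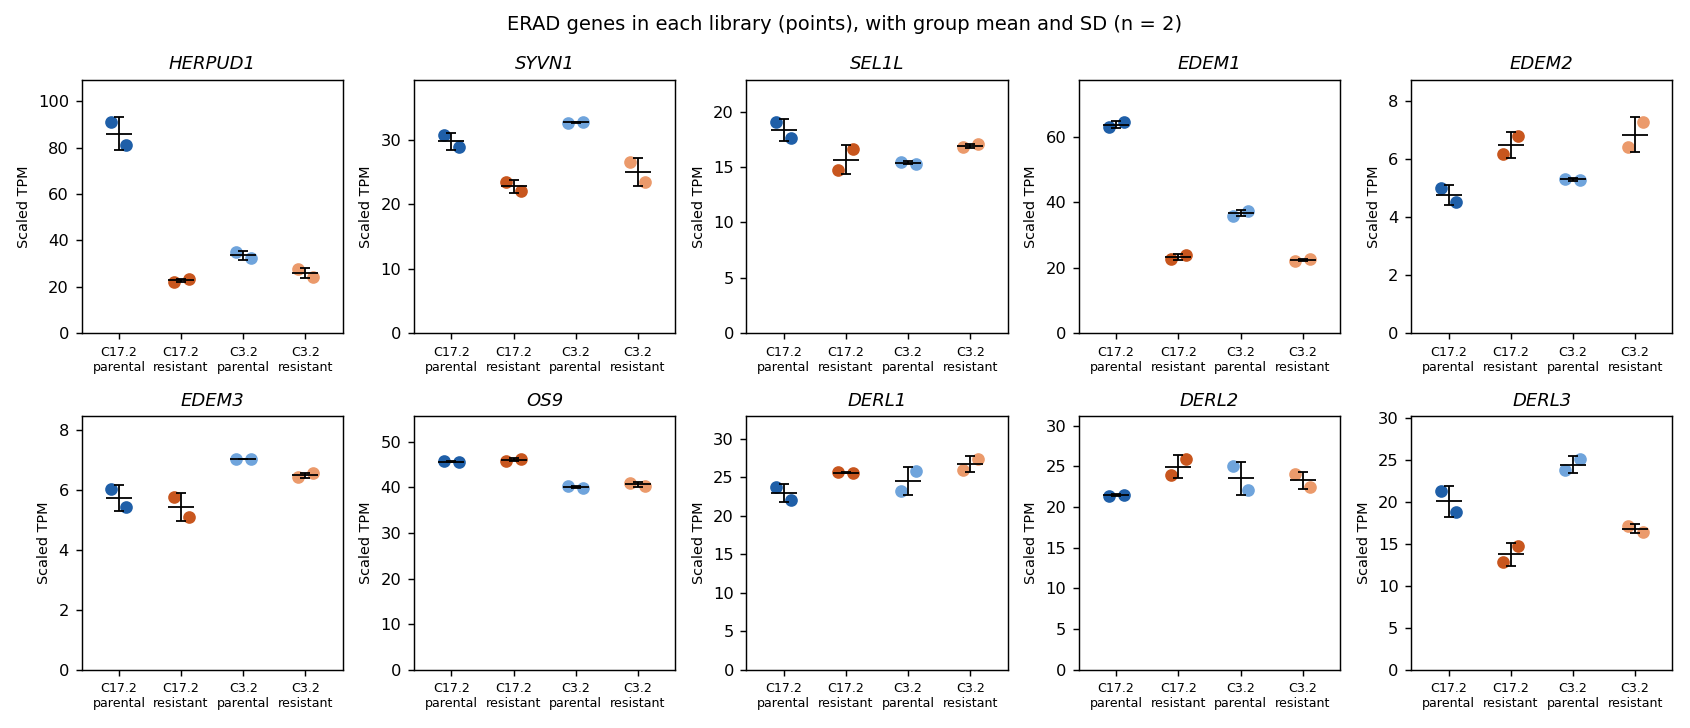
Scaled TPM of each of the 10 ERAD genes in the 8 libraries. Each panel is 1 gene with a linear axis from 0, points are libraries (blue parental, orange resistant), and the black bar and whiskers are the mean and SD of the 2 libraries of a group. *HERPUD1* and *EDEM1* stand far above their other groups in clone C17.2 parental cells (means 86.1 and 63.7 scaled TPM), and *OS9* is nearly level within each clone.

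*HERPUD1* (ENSG00000051108.15, GRCh38 chr16:56932142-56944864, plus strand) encodes HERP, a membrane protein with a ubiquitin-like domain that organizes the HRD1 complex and is itself turned over quickly. It had 91.1 and 81.0 scaled TPM in clone C17.2 parental libraries, 22.2 and 23.1 in clone C17.2 resistant libraries, 35.0 and 32.3 in clone C3.2 parental libraries, and 27.5 and 24.4 in clone C3.2 resistant libraries. Parental cells of clone C17.2 were thus the high group, and the means of the other groups ran from 22.7 to 33.7 scaled TPM. The mean fell from 86.1 ± 7.16 (SD, n = 2) to 22.7 ± 0.624 (SD, n = 2) scaled TPM in clone C17.2 (log2 fold change -1.88, standard error 0.084, limma adjusted p = 5.4e-05). In clone C3.2 the mean fell from 33.7 ± 1.95 (SD, n = 2) to 26.0 ± 2.22 (SD, n = 2) scaled TPM (log2 fold change -0.36, with the same standard error, limma adjusted p = 0.042). This second call is weak: it passed under 3 of 16 alternative settings, with an adjusted p from 0.024 to 0.20, and it was lost without either parental library of either clone, without either clone C17.2 resistant library and without clone C3.2 resistant library 2 (limma adjusted p from 0.062 to 0.20). The difference between the clones was -1.51 on the log2 scale (95% confidence interval -1.80 to -1.23, limma adjusted p = 0.0016).

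The clones differed in level as parental cells. *HERPUD1* was 2.56 times as high in clone C17.2 as in clone C3.2 parental cells (log2 difference 1.33, limma adjusted p = 3.1e-04), and 0.874 times as high in resistant cells (log2 difference -0.18, 95% confidence interval -0.39 to 0.02, limma adjusted p = 0.18). As TPM without scaling, the log2 difference between resistant cells was 0.07, a choice that shifts the median of all genes by 0.22 in this comparison. *HERPUD1* took 27.9% and 26.1% of the summed TPM of the 10 genes in clone C17.2 parental libraries and 10.9% and 11.0% in resistant libraries, against 14.4% and 13.3%, then 12.9% and 11.7%, in clone C3.2. A pair of noncoding genes on the same strand, ENSG00000261270 and ENSG00000261114, overlap *HERPUD1* and also fell in clone C17.2, by 1.05 and 1.26 on the log2 scale (limma adjusted p = 0.013 and 0.0073). Their group means were low, from 1.05 to 4.04 scaled TPM. In clone C3.2 their log2 fold changes of 0.01 and -0.49 did not pass (limma adjusted p = 0.997 and 0.20). How reads were divided among these genes was not tested.

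*EDEM1* (ENSG00000134109.11, GRCh38 chr3:5187646-5219958, plus strand) encodes a mannosidase-like protein that helps take misfolded glycoproteins out of the folding cycle. Its levels were 62.9 and 64.5 scaled TPM in clone C17.2 parental libraries, 22.6 and 23.9 in clone C17.2 resistant libraries, 35.9 and 37.2 in clone C3.2 parental libraries, and 22.1 and 22.5 in clone C3.2 resistant libraries. The groups of each clone were well apart, and the resistant groups of the clones nearly met. The log2 fold change was -1.42 with a standard error of 0.047 in clone C17.2 (limma adjusted p = 2.0e-05) and -0.69 with the same standard error in clone C3.2 (limma adjusted p = 9.7e-04). Both calls held under all 16 alternatives, with log2 fold changes from -1.45 to -1.26 and from -0.71 to -0.60. The fall was larger in clone C17.2 by 0.73 on the log2 scale (95% confidence interval of the difference -0.89 to -0.57, limma adjusted p = 0.0026).

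*EDEM1* also started higher in clone C17.2. Its level was 1.74 times as high in clone C17.2 as in clone C3.2 parental cells (log2 difference 0.79, limma adjusted p = 2.6e-04) and 1.04 times as high in resistant cells (log2 difference 0.06, 95% confidence interval -0.06 to 0.17, limma adjusted p = 0.45). Without scaling, the resistant clones differed by 0.30 on the log2 scale (limma adjusted p = 0.014). Across the 10 genes, 2 of 10 differed in their change between the clones, *HERPUD1* and *EDEM1*, against 9.96% of genes tested, and these 2 differed in all 15 alternatives.

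Neither of the other mannosidases passed the test as lower. *EDEM2*, which trims the first mannose of the glycan, had 5.01 and 4.51 scaled TPM in clone C17.2 parental libraries and 6.17 and 6.80 in resistant libraries, then 5.33 and 5.27 in clone C3.2 parental libraries and 6.42 and 7.28 in resistant libraries. The resistant libraries were higher in each clone without overlap. Its log2 fold change was 0.38 with a standard error of 0.084 in clone C17.2 (limma adjusted p = 0.019) and 0.32 with the same standard error in clone C3.2, where it did not pass (limma adjusted p = 0.063). The call in clone C17.2 was lost without parental library 1, parental library 2 or resistant library 2 of that clone (limma adjusted p = 0.051, 0.11 and 0.10). *EDEM3*, which trims further mannoses, was between 5.10 and 6.03 scaled TPM in clone C17.2 and between 6.43 and 7.05 in clone C3.2, and its log2 fold changes of -0.07 and -0.10 did not pass (limma adjusted p = 0.56 and 0.43). The small value in clone C17.2 changed sign with the scaling, at 0.07 for TPM as deposited and 0.01 for TPM rescaled over protein-coding genes.

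Shares within a library do not depend on the scaling. *EDEM1* made up 85.1% and 86.6% of the summed TPM of *EDEM1*, *EDEM2* and *EDEM3* in clone C17.2 parental libraries and 65.4% and 66.7% in resistant libraries. In clone C3.2 it made up 74.4% and 75.1%, then 63.2% and 61.9%. The share of *EDEM2* was 6.41% ± 0.502 (SD, n = 2) and 18.4% ± 0.784 in clone C17.2, and 10.8% ± 0.291 and 19.2% ± 1.17 in clone C3.2, parental cells first. *EDEM1* thus remained the most abundant of the family in each library, with a smaller share in resistant cells. A comparison of 2 libraries with 2 cannot give an exact two-sided permutation p below 0.333, the value obtained for each of these shares in each clone.

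**Figure D2:**
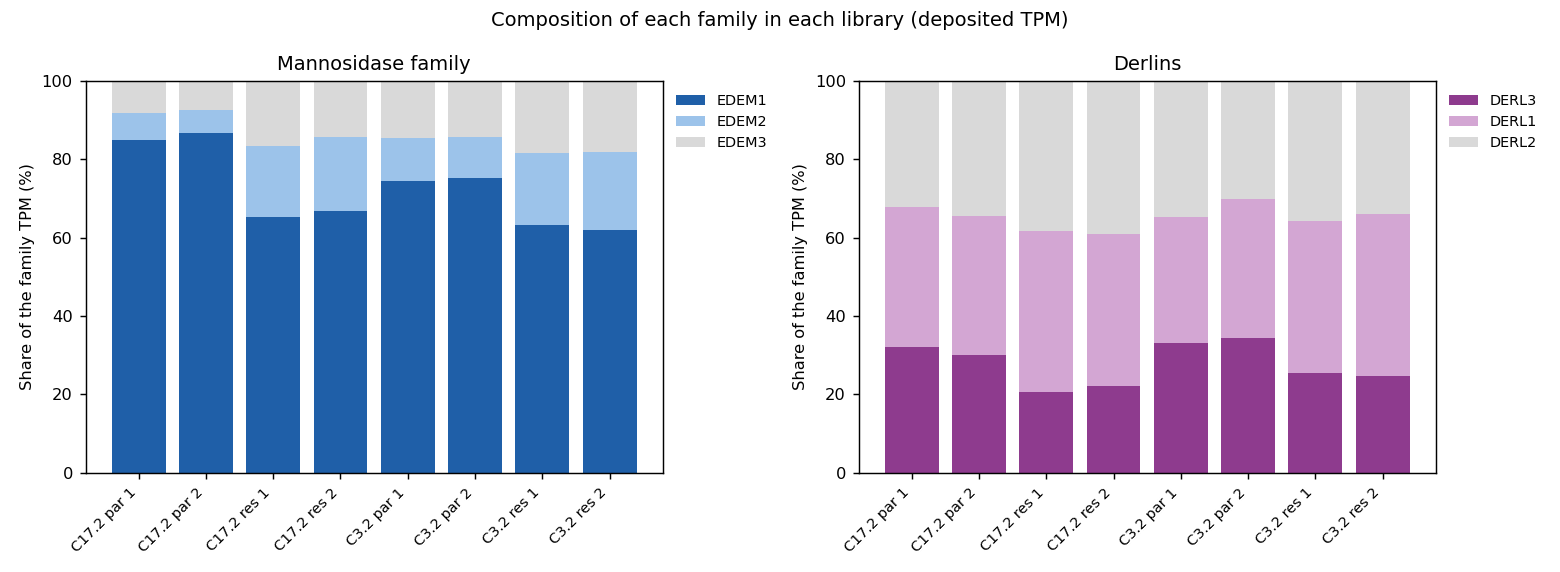
Share of each family's summed TPM, in percent, taken by each gene in the 8 libraries. The left panel shows *EDEM1*, *EDEM2* and *EDEM3* and the right panel the derlins, with parental (par) and resistant (res) libraries named by clone and replicate. The bars of *EDEM1* and *DERL3* are shorter in resistant libraries of both clones.

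*SYVN1* (ENSG00000162298.18, GRCh38 chr11:65121780-65134532, minus strand) encodes HRD1, the ubiquitin ligase at the center of the membrane complex. Its levels were 30.7 and 28.8 scaled TPM in clone C17.2 parental libraries, 23.5 and 22.0 in clone C17.2 resistant libraries, 32.6 and 32.7 in clone C3.2 parental libraries, and 26.5 and 23.4 in clone C3.2 resistant libraries. Each resistant library lay below each parental library of either clone. The log2 fold change was -0.37 in clone C17.2 (limma adjusted p = 0.011) and -0.38 in clone C3.2 (limma adjusted p = 0.023), each with a standard error of 0.071. The difference between the clones was 0.01 on the log2 scale, with a 95% confidence interval from -0.24 to 0.25. The call in clone C17.2 was lost for TPM as deposited (log2 fold change -0.22, limma adjusted p = 0.13) and without its parental library 1 or resistant library 2 (limma adjusted p = 0.072 and 0.069). In clone C3.2 it was lost for TPM as deposited, for the clone fitted alone, and without either parental library of either clone or clone C3.2 resistant library 2 (limma adjusted p from 0.052 to 0.12). *SYVN1* overlaps *FAU*, a ribosomal fusion gene of 233 to 291 scaled TPM on the same strand, over 398 bases. Overlaps here and below are of whole gene spans, introns included, so they need not be shared transcript. *FAU* changed by -0.08 and -0.06 on the log2 scale in clone C17.2 and clone C3.2, neither past the threshold. On the opposite strand *MRPL49*, at 19.2 to 21.8 scaled TPM as group means, overlaps *SYVN1* over 5189 bases. It changed by 0.03 and -0.09 on the log2 scale (limma adjusted p = 0.73 and 0.35). How reads were divided among these genes was not tested.

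*SEL1L*, the adaptor that stabilizes HRD1 and brings it substrates, did not pass the test in either clone. It had 19.1 and 17.6 scaled TPM in clone C17.2 parental libraries and 14.7 and 16.6 in resistant libraries, and 15.5 and 15.3 in clone C3.2 parental libraries and 16.8 and 17.0 in resistant libraries. The log2 fold change was -0.22 in clone C17.2 and 0.13 in clone C3.2 (limma adjusted p = 0.061 and 0.28). Its change differed by -0.35 between clones, which also missed the threshold (95% confidence interval -0.58 to -0.11, limma adjusted p = 0.076). Clone C17.2 resistant library 2 sat between the groups, and without it the value in that clone was -0.30 (limma adjusted p = 0.041), against -0.13 without resistant library 1 and -0.06 for TPM as deposited (limma adjusted p = 0.22 and 0.63). *HERPUD1* was present at 2.97 and 2.81 TPM per TPM of *SYVN1* in clone C17.2 parental libraries and at 0.948 and 1.05 in resistant libraries. In clone C3.2 the ratio was 1.07 and 0.986 in parental libraries and 1.04 and 1.04 in resistant libraries, so it was near 1 in the groups other than clone C17.2 parental cells. *SEL1L* per *SYVN1* had means of 0.617 in parental and 0.690 in resistant cells of clone C17.2, and of 0.471 and 0.680 in clone C3.2 (exact permutation p = 0.333 in each, the smallest possible with n = 2 per group).

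The derlins are membrane proteins of the channel through which substrates leave the ER. *DERL3*, the derlin most restricted to secretory cells, had 21.4 and 18.8 scaled TPM in clone C17.2 parental libraries and 12.8 and 14.7 in resistant libraries, and 23.8 and 25.2 in clone C3.2 parental libraries and 17.206 and 16.5 in resistant libraries. It was lower in both resistant groups without overlap. The log2 fold change was -0.51 with a standard error of 0.087 in each clone (limma adjusted p = 0.0070 in clone C17.2 and 0.017 in clone C3.2), and the clones differed in this change by -7.1e-04, with a 95% confidence interval from -0.30 to 0.30. For TPM as deposited the values were -0.36 and -0.45, and neither passed (limma adjusted p = 0.055 and 0.068). In clone C3.2 the call was also lost without either parental library or resistant library 2 of that clone (limma adjusted p = 0.087, 0.10 and 0.077). *DERL3* shares 3507 bases with *SMARCB1* on the opposite strand, which had 81.4 to 105.7 scaled TPM as group means and also fell, by 0.30 in clone C17.2 and 0.19 in clone C3.2 on the log2 scale (limma adjusted p = 0.0029 and 0.034). Whether the reads were counted by strand is not given in the sources used here, so reads from *DERL3* and *SMARCB1* may not be told apart. The part of the 3507 bases that lies in exons was not examined.

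*DERL1* and *DERL2* did not share this fall. *DERL1* lay between 22.1 and 27.5 scaled TPM and *DERL2* between 21.3 and 26.0 over all 8 libraries. Their log2 fold changes in clone C17.2 were 0.15 and 0.21 (limma adjusted p = 0.14 and 0.082), and in clone C3.2 they were 0.12 and -0.01 (limma adjusted p = 0.30 and 0.93), the latter turning to 0.05, 0.02 and 0.09 for TPM as deposited, quantile normalization and rescaling over protein-coding genes. For TPM as deposited both were higher in clone C17.2 by 0.31 and 0.37 on the log2 scale (limma adjusted p = 0.037 and 0.020). On the opposite strand *MIS12* overlaps *DERL2* over 527 bases. *MIS12* was higher in clone C17.2 by 0.35 on the log2 scale (limma adjusted p = 0.020), and its change of 0.12 in clone C3.2 did not pass. *TBC1D31* overlaps *DERL1* over 335 bases on the opposite strand and passed in neither clone (limma adjusted p = 0.30 and 0.97). *DERL3* made up 32.1% and 30.1% of the summed TPM of the 3 derlins in clone C17.2 parental libraries and 20.5% and 22.2% in resistant libraries. In clone C3.2 it made up 33.0% and 34.4%, then 25.6% and 24.8%, so the resistant libraries were lower in each clone.

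*OS9*, a lectin that hands trimmed glycoproteins to SEL1L, changed little between parental and resistant cells. It had 45.7 and 45.6 scaled TPM in clone C17.2 parental libraries and 45.8 and 46.3 in resistant libraries, and 40.2 and 39.9 in clone C3.2 parental libraries and 41.0 and 40.3 in resistant libraries. Each clone C17.2 library exceeded each clone C3.2 library. The log2 fold changes were 0.01 in clone C17.2 (95% confidence interval -0.08 to 0.10) and 0.02 in clone C3.2 (95% confidence interval -0.07 to 0.11). *AGAP2* overlaps *OS9* over 4582 bases on the opposite strand and fell, by 1.05 in clone C17.2 and 0.51 in clone C3.2 on the log2 scale (limma adjusted p = 0.0017 and 0.046), and without knowledge of strand reads of these genes may not be told apart. For *OS9* the clones differed by 0.18 on the log2 scale, both in parental cells (limma adjusted p = 0.016) and in resistant cells (limma adjusted p = 0.023), and by 0.35 and 0.43 for TPM as deposited. These calls were lost without any 1 of the parental libraries (limma adjusted p from 0.065 to 0.076) or, in resistant cells, without either clone C17.2 library or clone C3.2 library 2 (limma adjusted p from 0.059 to 0.080). Between parental clones, 3 of 10 genes differed, *HERPUD1*, *EDEM1* and *OS9*, each higher in clone C17.2, against 22.5% of genes tested. Between resistant clones only *OS9* passed, 1 of 10 against 20.3% of genes tested.

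**Figure D3:**
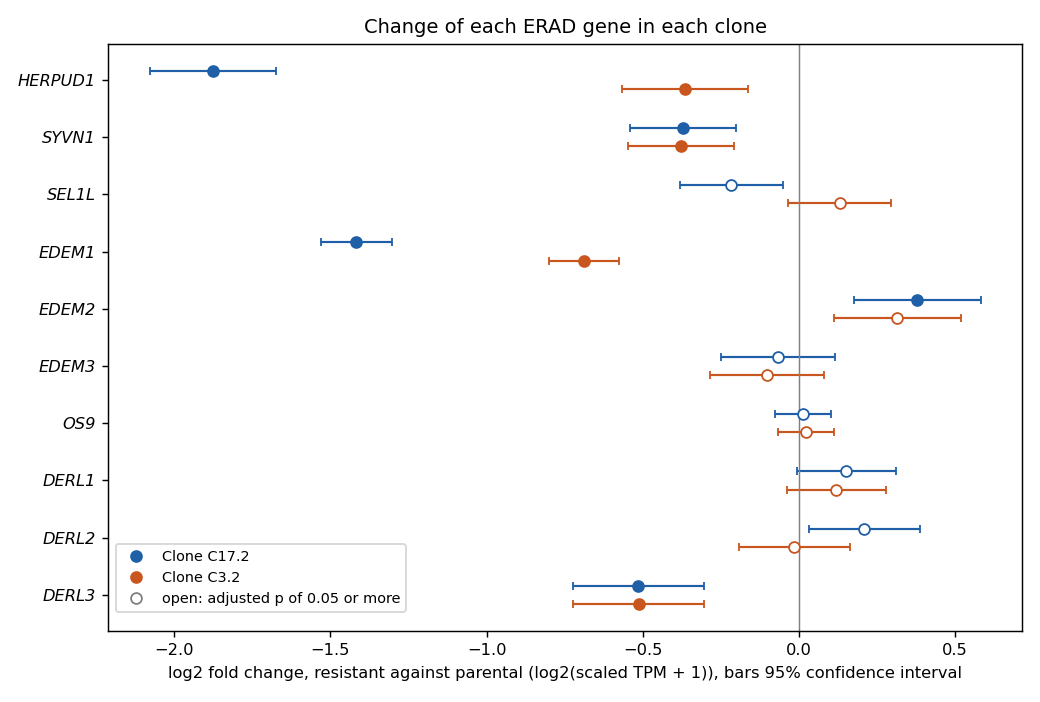
Log2 fold change of each ERAD gene in resistant against parental cells, on the log2(scaled TPM + 1) scale, with its 95% confidence interval from limma, in clone C17.2 (blue) and clone C3.2 (orange). Filled points passed the adjusted p threshold of 0.05. *HERPUD1* and *EDEM1* lie farther left in clone C17.2 than in clone C3.2, and the points of *SYVN1* and *DERL3* nearly coincide between the clones.

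Across the 8 libraries the genes that fell were most alike in 2 pairs. Log2 levels of *HERPUD1* and *EDEM1* correlated with Pearson's r of 0.96, and those of *SYVN1* and *DERL3* with r of 0.94. Across the pairs, r of *HERPUD1* was 0.58 with *SYVN1* and 0.48 with *DERL3*. That of *EDEM1* was 0.68 with *SYVN1* and 0.60 with *DERL3*. *EDEM1* and *EDEM2* ran in opposite directions (r of -0.92). The points share clones and group means, so these are descriptions of 4 groups rather than of 8 independent samples. Among 6386 protein-coding genes with a mean of at least 10 TPM outside the 10, the genes whose levels were most like *EDEM1* were *ASNS*, *PSAT1*, *ATF4*, *FLOT2* and *PABPC1*, with r from 0.995 to 0.999 over the 8 libraries. *ASNS* and *PSAT1* encode enzymes that make asparagine and serine, and both are known targets of ATF4. Genes among the 5 most like *HERPUD1* were *XPOT*, *HIST1H2AE*, *SPNS3* and *KDM6B*, with r from 0.992 to 0.996. Those most like *SYVN1* were *RPL12*, *ACBD3*, *RPS3*, *EIF3F* and *H1FX*, with r from 0.979 to 0.990, of which *RPL12* and *RPS3* encode ribosomal proteins.

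The promoters of *HERPUD1*, *SYVN1* and *EDEM1* are shown because these genes fell in both clones and the factors of the unfolded protein response are known to bind short motifs near such starts. Sequences are from RefSeq on GRCh38.p14, written 5′ to 3′ along the gene, begin 180 bases before the RefSeq start and end where the Gencode release 44 gene begins (chr16:56931962-56932141, plus strand, chr11:65134533-65134699, minus strand, and chr3:5187527-5187645, plus strand). Capitals mark matches to a searched motif.
HERPUD1: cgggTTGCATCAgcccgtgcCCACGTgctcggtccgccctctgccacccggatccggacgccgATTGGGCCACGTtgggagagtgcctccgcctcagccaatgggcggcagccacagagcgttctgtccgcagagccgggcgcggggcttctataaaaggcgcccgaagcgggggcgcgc
SYVN1: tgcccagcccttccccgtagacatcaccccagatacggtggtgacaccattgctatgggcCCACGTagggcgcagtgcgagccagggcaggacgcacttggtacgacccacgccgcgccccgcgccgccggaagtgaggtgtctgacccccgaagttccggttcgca
EDEM1: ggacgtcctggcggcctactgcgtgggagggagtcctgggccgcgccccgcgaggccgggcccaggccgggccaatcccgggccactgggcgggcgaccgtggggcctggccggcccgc
The motifs searched on both strands of the 300-base windows (250 bases before the start and 50 after) were the ER stress element ERSE (CCAAT, 9 bases, CCACG), ERSE-II (ATTGG, 1 base, CCACG), the unfolded protein response element UPRE (TGACGTGG), the XBP1 core ACGTGG, which UPRE contains, and the CARE element of ATF4 (TGATG, 1 base, AAT). They occurred in 0.0769%, 0.0541%, 0.729%, 9.72% and 0.991% of all 35116 promoter windows. A shorter form of CARE (TGATG, 1 base, AA), added after the sequences were seen, occurred in 3.62%. *HERPUD1* held ERSE-II from base -117 to -107, overlapping a match to the XBP1 core, a further core match from -160 to -155, and the shorter CARE from -176 to -169 on the opposite strand. *SYVN1* held a core match from -120 to -115, *OS9* a pair, from -111 to -106 and from -86 to -81, and *EDEM3* a match from -163 to -158. The windows of *EDEM1*, *EDEM2*, *SEL1L* and *DERL2* held none of these letters, and *DERL1* and *DERL3* had no window. The windows of *OS9* and *DERL2* lie wholly within the Gencode gene, so no bases before its Gencode start were searched for these genes. Core matches thus occurred in genes that fell (*HERPUD1*, *SYVN1*) and in genes that did not pass the test (*OS9*, *EDEM3*). A match describes letters only.

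The wider ERAD pathway was read from a list of 63 further genes, chosen with earlier results of these data known, of which 59 were tested. In clone C17.2, 7 were higher and 9 lower (27.1%, against 27.3% of all genes tested), and the median log2 fold change was 0.00. The balance turned with the scaling, to 20 higher and 4 lower for TPM as deposited and 16 higher and 5 lower for TPM rescaled over protein-coding genes. In clone C3.2, 0 were higher and 1 lower (1.69%, against 11.3%), with a median of -0.01 (6 higher and 8 lower at an unadjusted p under 0.05 in limma). The only call in clone C3.2 was *UBE2J1*, the ubiquitin-conjugating enzyme that works with HRD1, with 36.3 and 37.6 scaled TPM in parental libraries and 28.8 and 31.4 in resistant libraries (log2 fold change -0.29, limma adjusted p = 0.026, called under 7 of 16 alternatives). It was also lower in clone C17.2, by 0.43 (limma adjusted p = 0.0026). Of the genes of p97, the ATPase that pulls substrates out of the membrane, and its adaptors, 3 of 11 were higher and 1 lower in clone C17.2. Of 10 other membrane adaptors and proteases, 1 was higher and 4 were lower there. Among all genes tested in clone C17.2, 13.4% were higher and 13.9% lower. In clone C3.2, 0 genes of either set passed.

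The values of the largest falls and rises of this list in clone C17.2 are given next. *TMUB1*, a ubiquitin-like adaptor, went from 24.3 and 25.7 to 18.0 and 15.2 scaled TPM (log2 fold change -0.57, limma adjusted p = 0.0058). *DNAJB12*, a J protein that presents membrane substrates, went from 23.9 and 24.4 to 16.9 and 15.6 (log2 fold change -0.55, limma adjusted p = 0.0043), and its change differed from that in clone C3.2, where it was 0.26. *UBAC2*, a partner of the ligase gp78, and the rhomboid protease *RHBDD1* fell by 0.53 and 0.48 on the log2 scale (limma adjusted p = 0.0023 and 0.048), the latter called under 5 of 16 alternatives. The largest rises were in *TRIM13*, a ligase of the ER membrane, from 6.13 and 6.75 to 9.47 and 11.2 scaled TPM (log2 fold change 0.60, limma adjusted p = 0.0038), *NPLOC4*, the p97 cofactor, by 0.49 (limma adjusted p = 0.012), *VCP*, which encodes p97, by 0.37 (limma adjusted p = 0.0029), and *UBE2K*, a ubiquitin-conjugating enzyme, by 0.36 (limma adjusted p = 0.037, called under 6 of 16 alternatives). The difference between the clones was tested for each of these genes and passed for *DNAJB12* only.

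Other genes of the stress response moved apart from one another. In a list of 15 ER chaperones and related genes that XBP1 and ATF6 are known to regulate, 14 were higher and 1 lower in clone C17.2 (against 13.4% higher and 13.9% lower among all genes tested), and 1 was higher and 2 were lower in clone C3.2 (against 4.43% higher and 6.91% lower). The other scalings gave 2 or 3 genes of this list higher and 0 lower in clone C3.2. Parental cells of clone C17.2 had 1 gene of this list higher and 13 lower than parental cells of clone C3.2. Resistant cells of clone C17.2 had 0 higher and 1 lower than those of clone C3.2. Of all genes tested, 22.5% differed between parental clones and 20.3% between resistant clones. The 10 ERAD genes, and *DNAJB9*, which was counted among the other ERAD genes, are not in this list. It thus does not hold all genes that XBP1 and ATF6 are known to regulate. This list and the ATF4 list below were chosen with earlier results of these data known. Their shares and those of all genes are thus not on equal terms. *HSPA5*, the chaperone BiP that holds the sensors inactive, had 25.7 and 25.0 scaled TPM in clone C17.2 parental libraries and 56.5 and 57.5 in resistant libraries, against 50.9 and 52.6, then 61.8 and 62.3, in clone C3.2. It rose by 1.14 in clone C17.2 (limma adjusted p = 2.3e-05) and by 0.26 in clone C3.2 (limma adjusted p = 0.014, called under 13 of 16 alternatives) on the log2 scale, in both cases opposite to *HERPUD1* and *EDEM1*. *XBP1* itself, the 1 gene of this list that was lower in clone C17.2, fell by 0.42 there and by 0.26 in clone C3.2 (limma adjusted p = 9.4e-04 and 0.014, the latter called under 10 of 16 alternatives). *DNAJB9*, which keeps the sensor IRE1 off through BiP, did not pass in either clone (log2 fold change 0.03 and -0.39). Its sign in clone C17.2 turned without parental library 1 or resistant library 2 (log2 fold change -0.06 each).

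In a list of 15 genes of the ATF4 branch, 14 were tested. Of these, 14 were lower in clone C17.2 and 10 lower in clone C3.2, against 13.9% and 6.91% lower among all genes tested. The medians were -2.37 and -0.88. Parental cells of clone C17.2 had 14 of these genes higher and 0 lower than parental cells of clone C3.2. Resistant cells of clone C17.2 had 1 higher and 1 lower than those of clone C3.2. *ATF4* had 344 and 341 scaled TPM in clone C17.2 parental libraries and 175.8 and 172.1 in resistant libraries, and 239 and 241, then 162 and 165, in clone C3.2. Its parental groups differed and its resistant groups lay close together, the order also seen for *EDEM1*. The log2 fold change of *ATF4* was -0.98 in clone C17.2 and -0.55 in clone C3.2 (limma adjusted p = 3.1e-05 and 8.8e-04). *DDIT3*, the stress factor CHOP, fell by 2.09 in clone C17.2 (limma adjusted p = 2.8e-04) and had a log2 fold change of -0.55 in clone C3.2 that did not pass (limma adjusted p = 0.063). Of the 4 sensors, *ERN1*, which encodes IRE1 and splices *XBP1* RNA, fell from 10.4 and 10.1 to 1.71 and 2.33 scaled TPM in clone C17.2 (log2 fold change -1.90, limma adjusted p = 4.9e-04) and was between 2.00 and 3.04 in clone C3.2. *ATF6* and *ATF6B* fell by 0.35 and 0.18 in clone C17.2 (limma adjusted p = 0.017 and 0.049, lost under 5 and 11 of 16 alternatives), and *EIF2AK3*, which encodes PERK, had log2 fold changes of 0.10 and -0.19. In clone C3.2, 0 of the 4 sensors passed in limma, and 0 at an unadjusted p under 0.05. TPM per gene do not show the spliced form of *XBP1* RNA or the activity of any sensor.

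**Figure D4:**
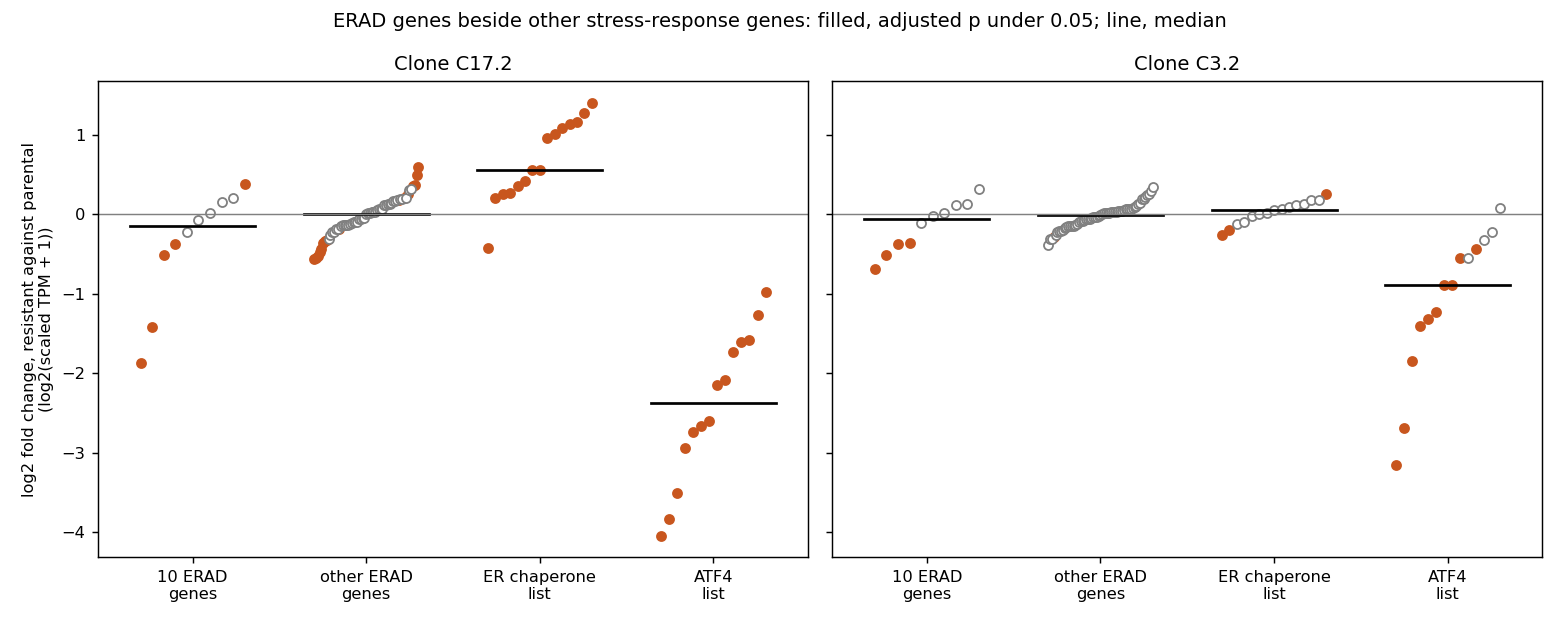
Log2 fold change in resistant against parental cells, on the log2(scaled TPM + 1) scale, of the 10 ERAD genes, the 59 other ERAD genes tested, the 15 genes of the chaperone list and the 14 tested genes of the ATF4 list, in each clone. Points are genes ordered by value, filled where the adjusted p was under 0.05, and black lines are medians. In clone C17.2 the chaperone list lies mostly above 0 (median 0.56), the ATF4 list below it (median -2.37) and the ERAD genes around it, with *HERPUD1* and *EDEM1* at the bottom of their column.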

How the data were processed

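RNA of 8 libraries was analyzed, 2 for each state of each clone. Total RNA was depleted of ribosomal RNA, and reads were trimmed (TrimGalore 0.6.3), aligned to hg38 (STAR 2.7.9a) and summed per gene of Gencode (RSEM 1.3.1) by the authors. The authors deposited TPM per gene and library, and the sequencing depth is unknown. The labels describe single-end reads and the methods paired ends. The RNA-seq here carries another series number than the one given for it in the methods.

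TPM were divided by library factors, a trimmed mean of log2 ratios against the average library (30% of the ratios and 5% of the levels were trimmed at either end). Of all genes, 15614 reached 1 TPM in some library, and their log2(scaled TPM + 1) was fitted with limma 3.58.1 (R 4.3.3), with an intensity trend, in one model of the 4 groups with no covariate. Confidence intervals cover 95%. The model was tested on simulated data. Python 3.11.15, pandas 2.3.3 and matplotlib 3.10.9 made tables and plots. The count model of the study was not run, since the values are TPM. Positions came from Gencode release 44, and overlaps were taken between whole gene spans, introns included.

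The genes named were the 10 members, the 4 largest rises and falls past the threshold with no overlap among the other ERAD genes in each clone, the stress factors and sensors, and the 5 genes most like *HERPUD1*, *EDEM1* and *SYVN1*, of which 1 is not reported here. Genes and regions singled out beyond this rule (the overlapping genes and *UBE2J1* in clone C17.2) were chosen after their values were seen. The members and lists were chosen with earlier results of these data known. The alternatives were other scalings, a pseudocount of 0.1, other filters, no trend, each clone alone and each library left out.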

Additional observations from a re-analysis of the deposited data

Results flagged for a closer look

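A difference between the changes in clone C17.2 and clone C3.2 was tested in 29 genes named by rule (limma, adjusted over all genes tested). Of these, 7 passed, against 9.96% of all genes tested. Several of the 29 were named for a large change in clone C17.2, so the shares are not on equal terms. All values are log2 fold changes in clone C17.2 minus those in clone C3.2. Among the ERAD members these were *HERPUD1*, with -1.51 (standard error 0.12, limma adjusted p = 0.0016), and *EDEM1*, with -0.73 (standard error 0.067, limma adjusted p = 0.0026). Among the other ERAD genes *DNAJB12* differed by -0.80 (limma adjusted p = 0.010), being lower in resistant cells of clone C17.2 and not called in clone C3.2. Among the stress-response genes *ATF4* differed by -0.42 (limma adjusted p = 0.0067), *DDIT3* by -1.54 (limma adjusted p = 0.0089), *ERN1* by -1.75 (limma adjusted p = 0.0068) and *HSPA5*, which was higher in resistant cells, by 0.88 (limma adjusted p = 8.1e-04). For each of these genes a difference between the clones cannot be told apart from one between the sets of libraries. Groups of 2 libraries were too small to look for a single outlying library.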

How the results depend on the processing

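TPM give no depth, and 2 libraries per group limit the precision. No paired analysis was possible because the parental and resistant libraries of a clone share no replicate number in the labels. TPM as deposited shifts the median of all genes by 0.13 in clone C17.2, 0.05 in clone C3.2 and 0.22 between resistant clones. The number of calls among all genes also changed with the setting. In clone C17.2 it was 4259 of 15614, against 5128 for TPM as deposited and 4859 rescaled over protein-coding genes. In clone C3.2 it was 1770 of 15614, against 1239, then 2455, and 396 of 14519 with the clone fitted alone. The counts of ERAD genes below are to be read beside these.

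The 10 ERAD genes called in clone C17.2 (5) numbered 7 for rescaling over protein-coding genes, 6 for the filter on all libraries, and 3 to 5 with each library left out, the lowest count being without parental library 1 of that clone. In clone C3.2 (4) they numbered 1 for TPM as deposited, 2 for the clone fitted alone, and 1 to 4 with each library left out (1 without either parental library or resistant library 2 of clone C3.2, 2 without either parental library of clone C17.2). Between parental clones (3) they numbered 5 after quantile normalization and 2 to 4 with each library left out. Between resistant clones (1) they numbered 3 for TPM as deposited, 0 with no intensity trend, and 0 to 1 with each library left out (0 without either clone C17.2 resistant library or clone C3.2 resistant library 2). The difference between the clones kept 2 calls, *HERPUD1* and *EDEM1*, in all 15 alternatives.

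Other ERAD genes called in clone C17.2 (16) numbered 24 for TPM as deposited, 21 rescaled over protein-coding genes, 10 with no filter, 10 with no intensity trend, and 7 to 20 with each library left out. In clone C3.2 (1) they numbered 0 after quantile normalization, 6 for rescaling over protein-coding genes, 2 with no filter, 0 for the clone fitted alone, and 0 to 4 with each library left out. Values of single genes turned sign 16 times, each for a gene not called. *EDEM3* in clone C17.2 was 0.071 for TPM as deposited, 0.0070 rescaled over protein-coding genes, and -0.14 to 0.0093 with each library left out. *DERL2* in clone C3.2 was 0.050 as deposited, 0.022 after quantile normalization, 0.088 rescaled, and -0.10 to 0.070 with each library left out. *HERPUD1* between resistant clones was 0.065 as deposited. *ATF6* in clone C3.2 was -0.0017 with no filter and -0.092 to 0.096 with each library left out. With each library left out, *DNAJB9* in clone C17.2 was -0.062 to 0.12, *ERN1* in clone C3.2 was -0.32 to 0.022 and *ATF6B* in clone C3.2 was -0.029 to 0.11. The cause was not tested. Of the other values of single genes under an alternative, 779 kept direction and side of the threshold, 99 lost their call and 10 gained one. Fits that left out a library assumed that the lone library of a group varied like the others.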
